A study of Homo sapiens with 4 samples.

Results

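The nuclear genes for the subunits of the respiratory chain and ATP synthase were examined in cisplatin-resistant (CR) and wild-type (WT) IGROV1 cells, an established human ovarian carcinoma line. Members were the rows of the gene count table whose symbols follow the naming of complex I (NDUFA, NDUFB, NDUFC, NDUFS and NDUFV with a number), complex II (SDHA to SDHD), complex III (UQCR), complex IV (COX4 to COX8) and ATP synthase (ATP5), with pseudogenes left out. The rule used names and no measured value, and it found 86 of the 58051 genes in the table: 37 of complex I, 4 of complex II, 9 of complex III, 16 of complex IV and 20 of ATP synthase. The CR cells were selected from the WT cells over 5 months in 6 cycles, each with 4 hours of cisplatin at a rising concentration and 3 weeks of recovery without drug. Both lines were harvested in log growth without drug. Each group had 2 biological replicates, with 24727362 and 24008899 counts in CR libraries and 23886257 and 24264458 counts in WT libraries. The CR line is a single selected line, and no second selection from WT cells was part of the comparison, so p-values refer to the variation among samples of the same 2 lines.

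The respiratory chain passes electrons from NADH (complex I) and succinate (complex II) through ubiquinone, complex III and cytochrome c to oxygen (complex IV). Complexes I, III and IV pump protons across the inner mitochondrial membrane, and ATP synthase uses the gradient to make ATP. Its subunits come from both genomes: 13 are encoded in mitochondrial DNA, and the rest are nuclear genes whose products are imported. Many of the nuclear genes carry binding sites for NRF1 and for ETS-family factors such as GABPA in their promoters. The symbols do not follow function everywhere. NDUFA4 is counted here with complex I by its name but is known as a complex IV subunit, ATP5IF1 is the inhibitor of ATP synthase, and ATP5S is factor B. Some subunits with other names, among them NDUFAB1 and CYC1, are outside the rule.

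Promoters are shown for COX6B1, the member that was higher in CR cells, for its paralog COX6B2, which is known from testis and was nearly silent here, and for ATP5F1C, the member nearest to the threshold. RefSeq gave a start for 68 of the 86 members. Each sequence is the 250 bases before that start in GRCh38.p14, read 5′ to 3′ on the gene's strand. Capitals mark a match to the NRF1 motif (GCGCA, any base, then GCGC) or to the ETS motif CCGGAAG, searched on both strands. The windows are chr19:35648073-35648322 (plus strand) for COX6B1, chr19:55354720-55354969 (minus strand) for COX6B2 and chr10:7787927-7788176 (plus strand) for ATP5F1C.
COX6B1: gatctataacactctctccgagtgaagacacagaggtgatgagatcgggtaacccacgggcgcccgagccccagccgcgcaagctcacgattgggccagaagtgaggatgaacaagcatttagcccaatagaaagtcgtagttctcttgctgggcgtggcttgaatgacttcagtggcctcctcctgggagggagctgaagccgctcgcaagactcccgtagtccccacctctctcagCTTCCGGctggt
COX6B2: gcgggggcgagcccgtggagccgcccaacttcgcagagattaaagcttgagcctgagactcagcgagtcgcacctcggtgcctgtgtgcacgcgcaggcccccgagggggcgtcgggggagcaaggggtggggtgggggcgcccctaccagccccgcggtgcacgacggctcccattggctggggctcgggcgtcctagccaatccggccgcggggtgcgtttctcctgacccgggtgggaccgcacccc
ATP5F1C: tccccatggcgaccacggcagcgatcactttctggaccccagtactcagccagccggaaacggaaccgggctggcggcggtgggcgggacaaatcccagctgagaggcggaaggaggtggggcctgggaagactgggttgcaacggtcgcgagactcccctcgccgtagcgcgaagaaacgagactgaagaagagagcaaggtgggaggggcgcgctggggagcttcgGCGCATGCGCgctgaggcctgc
The COX6B1 window holds the ETS motif on the other strand, the ATP5F1C window holds the NRF1 motif, and the COX6B2 window holds neither. Among the 68 members with a promoter, 15 (22.1%) held the NRF1 motif, against 6.2% of 27305 genes with a window of the same length. The ETS motif was found in 18 members (26.5%), against 10.2% of those genes. Either motif was present in 31 members and both in 2. These matches describe the letters in the window and not binding. GENCODE 29, used for gene positions elsewhere, places the starts of these 3 genes inside the windows shown, upstream of the RefSeq starts. The marked matches of COX6B1 and ATP5F1C lie downstream of those GENCODE starts.

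Of the 86 members, 79 passed the filter on low counts, and 2 of them changed: COX6B1 was higher and UQCRB was lower in CR cells. Counts were compared with edgeR's quasi-likelihood test over 17304 genes, and a call required a Benjamini-Hochberg adjusted p of at most 0.05. In that test 13.5% of all genes were called, 5.44% higher and 8.1% lower in CR cells, against 2.53% of the tested members. The members' median log2 fold change, CR over WT, was -0.08, against -0.01 over all genes tested. It was under 0.5 in size for 69 members (87.3%), against 59.8% of all genes. Both CR libraries lay above both WT libraries for 15 members and below them for 18, while the groups overlapped for 46. Over all genes tested, CR lay above WT in 27.0% and below WT in 28.2%. Thus 41.8% of tested members had groups that did not overlap, against 55.3% of all genes. At an unadjusted p of 0.05, 7 members passed, against 26.1% of all genes.

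**Figure D1:**
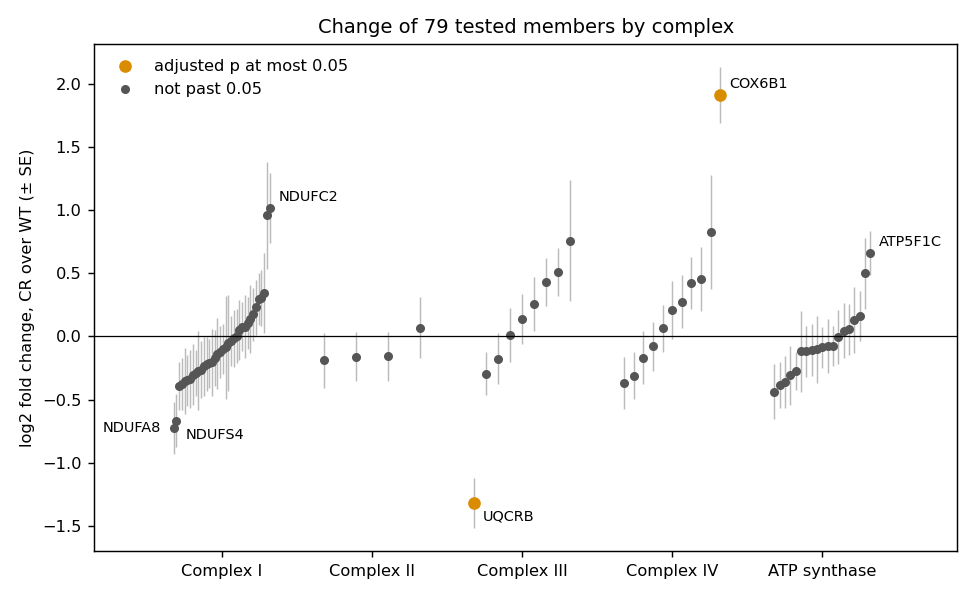
Log2 fold change, CR over WT, of the 79 tested members, sorted within each complex. Bars are standard errors from the fit, and members with an adjusted p of at most 0.1 are named. COX6B1 (1.91) and UQCRB (-1.32) are the 2 members past 0.05 and stand apart from the rest, which lie between -0.72 and 1.02.

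COX6B1, a small subunit of complex IV on its intermembrane-space side, measured 401.1 and 458.4 CPM (counts scaled to the library's size) in CR libraries and 132.5 and 95.5 CPM in WT libraries. Both CR values were above both WT values by a wide margin. The means were 429.7 ± 40.6 CPM in CR cells and 114 ± 26.2 CPM in WT cells (SD, n = 2 each), a 3.77-fold difference. The log2 fold change was 1.91 with a standard error of 0.22, and edgeR's adjusted p was 0.00205. COX6B1 (ENSG00000126267) lies at chr19:35648223-35658861 on GRCh38, plus strand. It was called under all 15 alternative settings, with log2 fold changes from 1.70 to 2.17. In bulk RNA, more cells that express a gene and more RNA per cell cannot be told apart.

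The difference held within a library against other subunits of the same enzyme. COX4I1 is the largest nuclear subunit of complex IV. The ratio of COX6B1 to COX4I1 counts was 1.19 and 1.21 in CR libraries and 0.350 and 0.312 in WT libraries. COX6B1 supplied 23.4% and 22.6% of the counts of the 16 complex IV members, which leave out NDUFA4, in CR libraries. In WT libraries it supplied 8.19% and 6.45%. Summed over these 16 members, the level was 1713 and 2026 CPM in CR libraries and 1619 and 1481 CPM in WT libraries, a log2 ratio of 0.27. Without COX6B1 the sums were 1311 and 1568 CPM in CR libraries and 1486 and 1385 CPM in WT libraries, and the groups overlapped. COX4I1 itself was 337 and 379 CPM in CR libraries and 378 and 307 CPM in WT libraries. COX5A, a subunit on the matrix side, was 132 and 161 CPM in CR libraries and 134 and 108 CPM in WT libraries.

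UQCRB, a small subunit of complex III that binds ubiquinone, was the member that fell. It measured 55.0 and 65.7 CPM in CR libraries and 147.5 and 153.0 CPM in WT libraries. The groups did not overlap, and the means were 60.3 ± 7.55 CPM in CR cells and 150.3 ± 3.88 CPM in WT cells (SD, n = 2 each). The level was 2.49-fold higher in WT cells. The log2 fold change was -1.32 with a standard error of 0.20, and edgeR's adjusted p was 0.00625. UQCRB (ENSG00000156467) lies at chr8:96225920-96235634 on GRCh38, minus strand. Without CR replicate 1 the call was lost, with a log2 fold change of -1.19 and an adjusted p of 0.0880; it was kept under the other 14 alternatives.

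Against the core proteins of its own complex, UQCRB showed the same split. The ratio of UQCRB to UQCRC2 counts was 0.252 and 0.275 in CR libraries and 0.514 and 0.558 in WT libraries. Its ratio to UQCRC1, the other core protein, was 0.232 and 0.249 in CR libraries and 0.456 and 0.632 in WT libraries. Its ratio to UQCRFS1, the Rieske iron-sulfur protein, was 0.398 and 0.402 in CR libraries and 1.29 and 1.41 in WT libraries. UQCRFS1 itself lay above WT in both CR libraries (log2 fold change 0.43, not called), so this ratio also carries that difference. UQCRB supplied 5.05% and 5.20% of the counts of the 9 complex III members in CR libraries, and 11.5% and 13.2% in WT libraries. These members leave out CYC1, which measured 151 and 157 CPM in CR libraries and 245 and 183 CPM in WT libraries. Without UQCRB, the sum over the complex III members was 1035 and 1197 CPM in CR libraries and 1140 and 1003 CPM in WT libraries, so those groups overlapped.

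**Figure D2:**
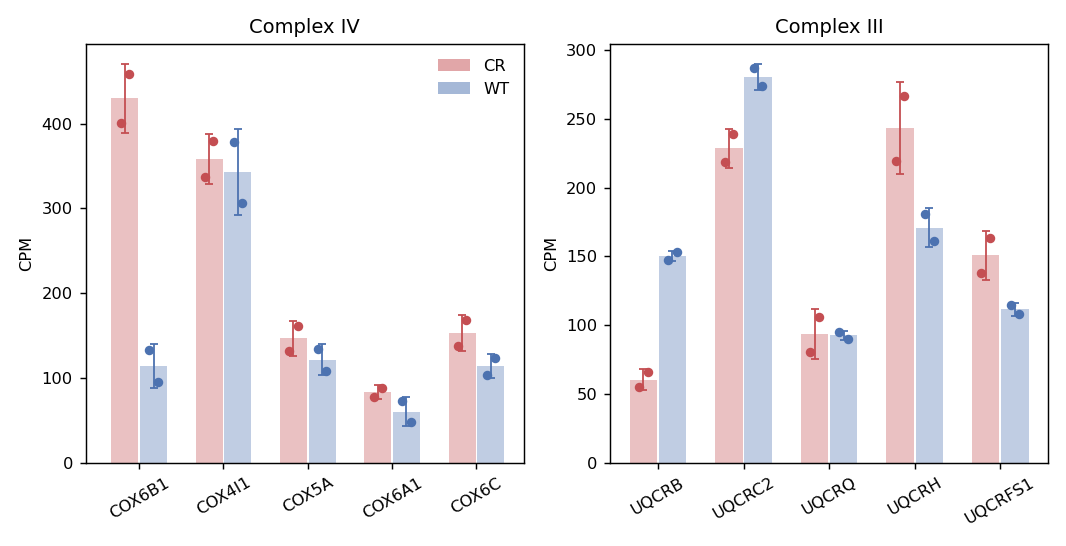
Level in CPM of COX6B1 with 4 complex IV partners (left) and UQCRB with 4 complex III partners (right), CR left of WT. Bars are means of 2 libraries with SD and points are single libraries. COX6B1 was 429.7 CPM in CR cells and 114 CPM in WT cells, and UQCRB was 60.3 CPM in CR cells and 150.3 CPM in WT cells.

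Complex I showed no called member among 36 tested with edgeR, against 13.5% of all genes, and its median log2 fold change was -0.11. At an unadjusted p of 0.05, 3 passed, against 26.1% of all genes. DESeq2 called 2 (NDUFC2 and NDUFA8) and limma-voom 0. Over all genes, DESeq2 called 6.27% higher and 8.78% lower. The 7 core subunits, most of which carry the flavin or iron-sulfur clusters or bind ubiquinone, had log2 fold changes between -0.38 and 0.34. Of them NDUFS1, with 137 and 127 CPM in CR libraries and 149 and 194 CPM in WT libraries, had a log2 fold change of -0.38 and an adjusted p of 0.315 (edgeR). Among the accessory subunits, NDUFC2, a membrane-arm protein, came closest to the threshold. It measured 8.997 and 10.02 CPM in CR libraries and 4.46 and 4.94 CPM in WT libraries, a log2 fold change of 1.02 with an adjusted p of 0.0577 (edgeR), and 17.1% of its transcript is shared with the readthrough gene NDUFC2-KCTD14. The next, NDUFA8, an intermembrane-space subunit, measured 48.4 and 54.4 CPM in CR libraries and 89.2 and 80.7 CPM in WT libraries. Its log2 fold change was -0.72 with an adjusted p of 0.0629 (edgeR). The groups of NDUFC2 and NDUFA8 did not overlap, and neither passed the threshold. NDUFS4, an accessory subunit whose loss causes Leigh syndrome in humans, was 30.8 and 34.4 CPM in CR libraries and 52.7 and 50.7 CPM in WT libraries, with an adjusted p of 0.0926 (edgeR). Over complex I, the groups did not overlap for 41.7% of tested members, against 55.3% of all genes. CR lay above WT for 5 members and below WT for 10. Among these members, NDUFA10, NDUFS5 and NDUFB3 lay below WT. NDUFA10 measured 88.2 and 97.6 CPM in CR libraries and 128 and 116 CPM in WT libraries (log2 fold change -0.39, adjusted p 0.259, edgeR). NDUFA13, which lay above WT, measured 3.26 and 3.27 CPM in CR libraries and 2.18 and 1.17 CPM in WT libraries (log2 fold change 0.96, adjusted p 0.212, edgeR). The spread within a group was wide for some members. NDUFV1, the core subunit that binds NADH and the flavin, measured 151 and 158 CPM in CR libraries and 248 and 125 CPM in WT libraries, so both CR values lay between the WT values. The summed complex I level was 2395 and 2715 CPM in CR libraries and 2950 and 2600 CPM in WT libraries.

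Complex II, succinate dehydrogenase, showed no called member and no separation of the groups in any of its 4 genes. Among all genes, edgeR called 13.5%, and the groups did not overlap for 55.3%. None of the 4 passed at an unadjusted p of 0.05, against 26.1% of all genes, and DESeq2 and limma-voom also called 0. SDHC, a membrane anchor, measured 69.0 and 72.5 CPM in CR libraries and 70.3 and 91.1 CPM in WT libraries, with an adjusted p of 0.663 (edgeR). SDHA, the flavoprotein that oxidises succinate, measured 164 and 151 CPM in CR libraries and 193 and 159 CPM in WT libraries, with an adjusted p of 0.682 (edgeR). Summed, the complex was 380 and 395 CPM in CR libraries and 421 and 434 CPM in WT libraries.

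None of the other 8 complex III genes was called by edgeR, DESeq2 or limma-voom, and 1 of them, UQCRH, passed at an unadjusted p of 0.05. For all genes tested, the shares were 13.5% called by edgeR and 26.1% at that unadjusted p. UQCRH, the hinge protein next to cytochrome c1, measured 219 and 267 CPM in CR libraries and 181 and 161 CPM in WT libraries, a log2 fold change of 0.51 with an adjusted p of 0.145 (edgeR). UQCRHL is a near-identical copy of UQCRH, so its 1.15 and 1.72 CPM in CR libraries and 0.685 and 1.01 CPM in WT libraries may include reads of UQCRH. UQCRFS1 measured 138 and 163 CPM in CR libraries and 115 and 108 CPM in WT libraries, a log2 fold change of 0.43 with an adjusted p of 0.210 (edgeR). Over the 9 complex III members, UQCRB included, CR lay above WT for 4 and below WT for 2. The groups thus did not overlap for 66.7% of these members, against 55.3% of all genes.

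In complex IV, COX6C, a small membrane-spanning subunit, had 138 and 168 CPM in CR libraries and 104 and 124 CPM in WT libraries, a log2 fold change of 0.43 with an adjusted p of 0.254 (edgeR). COX7C measured 210 and 260 CPM in CR libraries and 282 and 301 CPM in WT libraries, a log2 fold change of -0.31 with an adjusted p of 0.365 (edgeR). COX6A1 measured 76.9 and 88.6 CPM in CR libraries and 72.3 and 48.2 CPM in WT libraries, with a log2 fold change of 0.46 and an adjusted p of 0.326 (edgeR). Their groups did not overlap, which held for 54.5% of tested complex IV members and 55.3% of all genes. None of them passed the threshold. The ubiquitous form of each isoform pair carried nearly all counts. COX4I2, COX6A2, COX6B2, COX7B2 and COX8C, forms known from lung, muscle and testis, were among the members not tested. COX7B2 and COX8C had 0 counts in all 4 libraries. COX6B2 had 4 and 5 counts in CR libraries and 18 and 2 counts in WT libraries. COX6A2 had 5 and 8 counts in CR libraries and 9 and 2 counts in WT libraries, and COX4I2 had 1 and 0 counts in CR libraries and 2 and 0 counts in WT libraries. COX7A1, the heart and muscle form, passed the filter with 1.11 and 1.23 CPM in CR libraries and 0.685 and 0.628 CPM in WT libraries, and its adjusted p was 0.315 (edgeR). Its ubiquitous partner COX7A2 measured 111 and 138 CPM in CR libraries and 146 and 176 CPM in WT libraries.

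In ATP synthase no member was called among 19 tested with edgeR, DESeq2 or limma-voom, and 1 passed at an unadjusted p of 0.05. Over all genes, edgeR called 13.5%, and 26.1% passed at that unadjusted p. The groups did not overlap for 31.6% of tested ATP synthase members, against 55.3% of all genes. ATP5F1C, the gamma subunit that turns inside the catalytic head, came nearest, with 237 and 269 CPM in CR libraries and 162 and 159 CPM in WT libraries. Its log2 fold change was 0.66 with a standard error of 0.18, and edgeR's adjusted p was 0.0527, just over the threshold; it was called under 9 of 15 alternatives. ATP5F1A is the alpha subunit of that head, and the ratio of ATP5F1C to ATP5F1A counts was 0.355 and 0.373 in CR libraries and 0.193 and 0.188 in WT libraries. ATP5F1B, the catalytic beta subunit and the member with the most counts, measured 1368 and 1453 CPM in CR libraries and 1596 and 1372 CPM in WT libraries, so the groups overlapped. ATP5PB, a subunit of the peripheral stalk, measured 144 and 160 CPM in CR libraries and 187 and 210 CPM in WT libraries, with an adjusted p of 0.246 (edgeR). The 4 peripheral stalk genes had log2 fold changes between -0.44 and -0.12. The 3 genes of the c-ring, ATP5MC1 to ATP5MC3, which encode the same mature protein, lay between -0.36 and -0.09. ATP5S measured 11.4 and 12.8 CPM in CR libraries and 7.24 and 9.84 CPM in WT libraries, with an adjusted p of 0.326 (edgeR). Summed, the ATP synthase genes were 3870 and 4316 CPM in CR libraries and 4552 and 4201 CPM in WT libraries. ATP5MGL, a copy of ATP5MG, had 0 and 1 counts in CR libraries and 0 and 3 counts in WT libraries and was not tested.

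Levels between genes were compared per kilobase of coding sequence, as the mean over the 4 libraries. Counts were per gene and not per coding sequence, so genes with long untranslated parts rank higher on this scale than per kilobase of transcript. SDHC has 507 coding bases in an annotated transcript of 13566, SDHA has 1992 in 2390, and ATP5F1E has 153 in 3665. The order within a complex therefore depends on the length used. The highest and lowest tested members were NDUFA4 (895 CPM per kb) and NDUFV2 (2.42) in complex I, SDHC (149) and SDHA (83.8) in complex II, and UQCRH (758) and UQCRHL (4.18) in complex III. They were COX7C (1393) and COX7A1 (3.86) in complex IV, and ATP5F1E (1181) and ATP5S (15.98 CPM per kb) in ATP synthase. NDUFV2 is a core subunit, yet it measured 1.67 and 1.88 CPM in CR libraries and 1.93 and 1.76 CPM in WT libraries. Of the NDUFV2 transcript, 82.9% lies in exons of another gene annotated on the same strand. The same holds for at least 40% of the transcript of NDUFA7, NDUFB8, ATP5PO, NDUFA11, ATP5MF and NDUFA13. The median level of these 7 members was 18.96 CPM per kb of coding sequence (1.40 to 177), against 220 (3.86 to 1393) for the 65 tested members with no shared exon. The 2 sets were not filtered alike. The 7 include NDUFA7, which was not tested and gave the 1.40, while members that were not tested were left out of the 65. The treatment of reads in shared exons during counting is not given in the sources used here. The levels of the 7 members, NDUFA7 among those not tested, are uncertain.

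**Figure D3:**
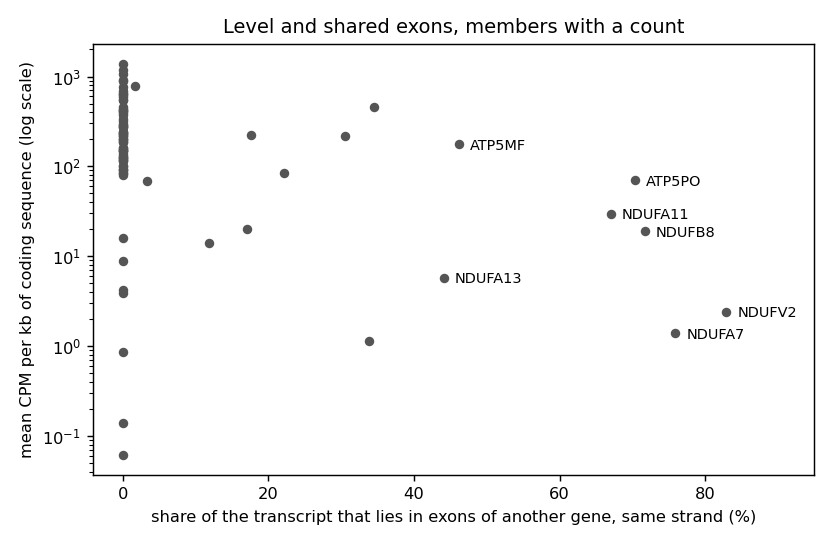
Mean CPM per kb of coding sequence (log scale) against the share of the transcript in exons of another gene on the same strand, for members with a count. The 7 members at 40% or more are named, and their median is 18.96 CPM per kb, against 220 for tested members that share none.

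COX6B1 lies among genes that were higher in CR cells. Over all genes tested, edgeR called 5.44% higher and 8.1% lower. Within 250 kb of COX6B1, 13 of 22 tested genes outside the member list were called higher and 1, DMKN, was called lower, with a median log2 fold change of 1.16. Without CR replicate 1 or CR replicate 2, 8 were called higher. HAUS5, an augmin subunit of the spindle, measured 86.3 and 82.6 CPM in CR libraries and 23.9 and 12.02 CPM in WT libraries. RBM42, an RNA-binding protein, measured 123 and 129 CPM in CR libraries and 45.3 and 28.02 CPM in WT libraries. Others of the 13 had few counts. SBSN measured 0.64 and 0.70 CPM in CR libraries and 0 CPM in both WT libraries. ATP4A measured 0.92 and 0.74 CPM in CR libraries and 0.086 and 0.084 CPM in WT libraries. Within 1 Mb of COX6B1, 64 genes were tested, 26 were called higher and 2 lower, and the median was 1.06. Whether this bears on the COX6B1 level was not tested. COX7A1 and UQCRFS1 lie on the same stretch of chromosome 19, and the median over genes within 1 Mb was 1.11 around COX7A1 and 0.66 around UQCRFS1 (5 genes). COX7A1 starts at 36150922 and COX6B1 at 35648223, so their 1 Mb windows overlap and hold many of the same genes. Around UQCRB, by contrast, the median over 5 genes within 1 Mb was 0.00, with 1 called lower, and its neighbours MTERF3 and PTDSS1 had log2 fold changes of -0.16 and 0.06. Over the 74 members with at least 5 tested neighbours, the members' log2 fold changes correlated with the medians of their neighbourhoods at 0.42, and at 0.23 without COX6B1, as a description across genes that share libraries. COX7A1, whose window overlaps that of COX6B1, was kept in both values.

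**Figure D4:**
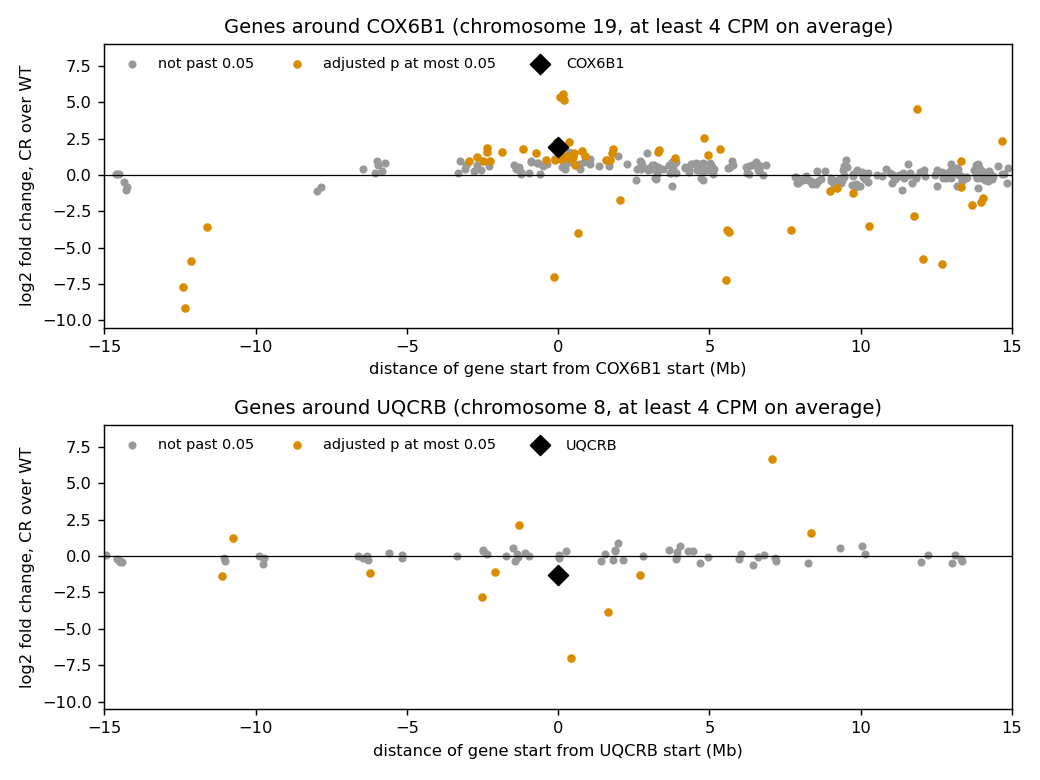
Log2 fold change, CR over WT, of genes with at least 4 CPM on average against the distance of their start from COX6B1 (top) or UQCRB (bottom). Most genes close to COX6B1 are above 0 (the median over all tested genes within 1 Mb is 1.06), while genes near UQCRB scatter around 0.

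The 2 WT libraries differed from each other in a way that followed base composition. Over the 79 tested members, the log2 ratio of CR replicate 1 to CR replicate 2 correlated with the GC content of the transcript at 0.36, and that of WT replicate 1 to WT replicate 2 at 0.78. WT replicate 1 to WT replicate 2 ranged from -0.57 (NDUFB5) to 1.23 (NDUFA11). The log2 fold change between CR and WT correlated with GC content at 0.20. COX6B1 and UQCRB have GC contents of 55.8% and 38.3%, and both were called with GC content as an offset in the fit.

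**Figure D5:**
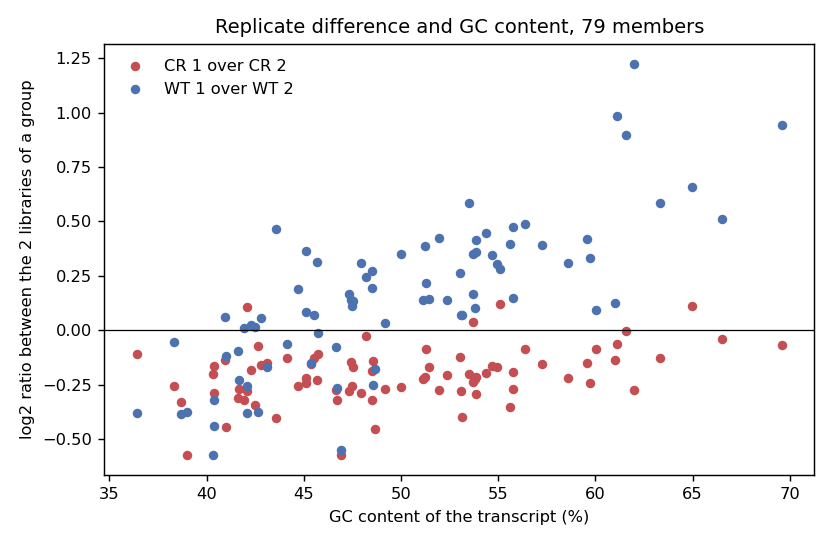
Log2 ratio between the 2 libraries of a group, CR and WT, against the GC content of the transcript for 79 tested members. The WT points rise with GC content (correlation 0.78), more than the CR points (0.36).

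Genes that act with these subunits were read from lists drawn up for this report. Over all genes tested, edgeR called 13.5%. It called 6.25% of complex I assembly factors, 5.88% of genes for electron carriers and ubiquinone synthesis and 11.8% of citric acid cycle enzymes. It also called 5.26% of regulators of mitochondrial gene expression and 2.6% of mitochondrial ribosomal proteins. The 13 mitochondrially encoded subunits summed to 72670 and 84092 CPM in CR libraries and 85817 and 56129 CPM in WT libraries, and 0 were called by edgeR, DESeq2 or limma-voom, or passed at an unadjusted p of 0.05. Of 16 complex I assembly factors, NDUFAF5 was called lower, with 14.7 and 13.5 CPM in CR libraries and 25.2 and 26.3 CPM in WT libraries (adjusted p 0.0457, edgeR). No assembly factor of complexes II and III (10 tested), of complex IV (25) or of ATP synthase (4) was called by edgeR. At an unadjusted p of 0.05, 1 passed for complexes II and III, 1 for complex IV and 0 for ATP synthase, and DESeq2 called 1, 0 and 0 of them and limma-voom 0. Of 17 genes for electron carriers and ubiquinone synthesis, COQ8A, a kinase-like protein needed to make ubiquinone, was called higher, with 50.1 and 47.2 CPM in CR libraries and 19.02 and 11.6 CPM in WT libraries (adjusted p 0.0111, edgeR). Of 17 enzymes of the citric acid cycle, IDH2 was called higher, with 142 CPM in both CR libraries and 78.9 and 71.7 CPM in WT libraries (adjusted p 0.0192, edgeR). IDH3B, a subunit of the NAD-linked isocitrate dehydrogenase, was called lower, with 32.5 and 37.5 CPM in CR libraries and 117 and 82.3 CPM in WT libraries (adjusted p 0.00906, edgeR). Of 77 mitochondrial ribosomal proteins, MRPS33 and MRPS26 were called lower, with log2 fold changes of -1.18 and -1.34. At an unadjusted p of 0.05, 11 of the 77 passed, against 26.1% of all genes, and DESeq2 called 4 and limma-voom 2. At that p, 2 complex I assembly factors, 3 carrier and ubiquinone genes, 5 citric acid cycle enzymes and 3 regulators passed. In those lists DESeq2 and limma-voom called as many genes as edgeR. Of 19 tested regulators of mitochondrial gene expression, 1 was called lower: PPARGC1A, a coactivator known to raise respiratory chain genes. It measured 1.04 and 1.10 CPM in CR libraries and 8.61 and 9.46 CPM in WT libraries, a log2 fold change of -3.07 with an adjusted p of 0.00150 (edgeR). None of 18 genes for import and cristae was called by edgeR, while 2 passed at an unadjusted p of 0.05 and DESeq2 and limma-voom each called 1. Without CR replicate 1, the calls of NDUFAF5 (adjusted p 0.483), IDH2 (0.246), IDH3B (0.0519), MRPS33 (0.247) and MRPS26 (0.162) were lost. Without CR replicate 2, those of NDUFAF5 (0.593), IDH2 (0.228), MRPS33 (0.179) and MRPS26 (0.0739) were lost. The call of NDUFAF5 was also lost with the replicate block (0.0525), with library size alone (0.0568) and with upper quartile factors (0.0547).

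Markers of the labelled epithelium were present at high levels and moved in both directions. Summed over 6 genes they gave 2748 and 2888 CPM in CR libraries and 4654 and 3350 CPM in WT libraries, with CDH1 and EPCAM called higher and KRT8 and KRT18 called lower. Of 5 fibroblast markers, DCN, LUM and COL1A2 had 0 counts in all libraries, and COL1A1 was 1.11 and 1.64 CPM in CR libraries and 57.1 and 31.4 CPM in WT libraries and was called lower. PDGFRA, the other tested fibroblast marker, was 0.478 and 0.614 CPM in CR libraries and 0.171 and 0.251 CPM in WT libraries, with an adjusted p of 0.215 (edgeR). The 4 leukocyte markers summed to 1.75 and 2.33 CPM in CR libraries and 1.71 and 1.93 CPM in WT libraries. Of 3 endothelial markers, PECAM1 was called higher and CDH5 lower, and their sum was 33.4 and 29.8 CPM in CR libraries and 67.0 and 85.3 CPM in WT libraries. The 5 muscle markers summed to 33.6 and 40.9 CPM in CR libraries and 122 and 126 CPM in WT libraries, and TNNT2 held most of that. TNNT2 was called lower, and so was MYH2, with 0 counts in both CR libraries and 11 and 21 counts in WT libraries. CKM and ACTA1 had log2 fold changes of 1.04 and 1.06 and were not called (edgeR, adjusted p 0.327 and 0.243), and MYH7 was not tested. Their part in the results on the subunits was not tested.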

How the data were processed

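Poly(A) RNA of 2 CR and 2 WT libraries was sequenced as stranded libraries, per the labels' protocols. The deposited table holds raw counts per Ensembl gene. The submitters' processing notes name the build GRCh38.p7 and the tools STAR 2.5.1a, HTSeq and DESeq, without roles. For the annotation and the strand setting, nothing is given in the sources used here. A second deposited table holds a normalized signal, the counts divided by 1 factor per library, and was not used for tests.

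Counts were fitted with edgeR 4.0.16 in R 4.3.3 (TMM factors, filterByExpr with a minimum count of 10, robust quasi-likelihood test, group as the only term, two-sided). All 17304 genes that passed the filter were fitted together, and they held 99.9% of counts. CPM use TMM-adjusted library sizes. Standard errors are back-calculated from the F statistic. Coordinates, coding lengths and shared exons came from GENCODE 29. With 2 libraries a group, the smallest two-sided p of an exact permutation test is 0.333, and none is reported. Columns that could not be mapped numbered 0. Without molecular identifiers, counts carry more than counting error.

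Named members are those past 0.05, the 2 smallest adjusted p per complex, the highest and lowest level per complex, and isoform pairs; other members named were chosen after their values were seen. Members and lists were chosen with earlier results of these data known. The code was tested on simulated data with 16802 genes: 15 of 92 2-fold changes and 67 of 96 4-fold changes were recovered. The labels do not say whether replicate numbers pair the samples, so the main fit used no pairing. Alternatives were other scalings and filters, DESeq2 1.42.0, limma 3.58.1, the replicate block, and leaving out each library; GC content offsets and a crossed block were added after seeing the data.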

Additional observations from a re-analysis of the deposited data

How the results depend on the processing

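COX6B1 was called under all 15 alternatives and UQCRB under 14. The count of members called higher (1) became 3 with library size alone, without the low-count filter, with GC content offsets and with a crossed replicate block. It became 2 with upper quartile factors, a stricter filter, DESeq2 and without mitochondrial genes in library sizes. The count called lower (1) became 2 without the filter, with DESeq2 and with the crossed block, and 3 with GC offsets. Over all genes, 942 were called higher, against 1454 without the filter, 1425 with GC offsets and 1671 with the crossed block. Over these settings and the leave-one-out fits, 2.94% to 21.0% of all genes were called higher and 4.83% to 21.8% lower. The log2 ratio of summed complex II levels (-0.14) was -0.089 with library size alone and -0.095 with upper quartile factors.

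Leaving out each library in turn gave 537 to 3864 genes higher and 883 to 4015 lower, and 1 to 15 members higher and 0 to 16 lower; the highest counts came without WT replicate 1 or WT replicate 2, where the lone WT library is assumed to vary like the CR libraries. The median log2 fold change of members was -0.16 to 0.05, and the complex III sum ratio was -0.15 to 0.05. For some members the direction depended on the WT library left out. The log2 fold change of ATP5F1D was 0.42 without WT replicate 1 and -0.52 without WT replicate 2. That of NDUFA11 was 0.65 without WT replicate 1 and -0.57 without WT replicate 2. The causes were not tested. With the replicate block, 1258 genes were higher and 1517 lower, and the members called were 1 higher and 1 lower. The difference between replicates 1 and 2 in CR correlated weakly and negatively with that in WT (-0.17 across genes), which does not settle pairing. A crossed pairing was therefore added, and under it 1671 genes were called higher and 1803 lower. With 2 libraries per group, changes of 2-fold were often missed in the simulation (15 of 92 found). Far fewer genes were changed there than edgeR called in the data (2344), so the adjusted p was harder to pass. The changed genes were drawn at all levels, so the share found does not give the power for the members.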

Other observations

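The stretch of chromosome 19 that holds COX6B1 was chosen after its values were seen. Between 28 and 44 Mb, 173 tested genes with at least 4 CPM had a median log2 fold change, CR over WT, of 0.66, and 40 were called higher and 7 lower by edgeR. On the rest of the chromosome, 640 such genes had a median of -0.12, with 12 called higher and 52 lower. Fold changes were above 0 for 85.5% of genes in the stretch and 38.4% of genes outside it. By windows of 2 Mb, the median was 0.92 from 32 to 34 Mb, 0.90 from 34 to 36 Mb, 1.07 from 36 to 38 Mb and -0.13 from 42 to 44 Mb. Without CR replicate 1, 22 genes of the stretch were called higher, and without CR replicate 2, 21. Without WT replicate 1, 133 were called higher, and without WT replicate 2, 104. SDHAF1, an assembly factor of complex II in the stretch, measured 14.2 and 16.2 CPM in CR libraries and 9.21 and 7.08 CPM in WT libraries, a log2 fold change of 0.90 with an adjusted p of 0.0774 (edgeR).

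Pseudogene rows that the naming rule left out numbered 56 and held 71 and 81 counts in CR libraries and 137 and 73 counts in WT libraries, against 237305 and 261979 counts in CR libraries and 252782 and 235740 counts in WT libraries over the members. All 159 pseudogene rows of the gene families, those the naming rule did not reach included, held 889 and 909 counts in CR libraries and 894 and 682 counts in WT libraries. Among them SDHAP1 held 479 and 464 counts in CR libraries and 407 and 372 counts in WT libraries, COX6A1P2 held 122 and 157 counts in CR libraries and 165 and 98 counts in WT libraries, and SDHAP3 held 160 and 157 counts in CR libraries and 117 and 99 counts in WT libraries. The 7 COX6B1 pseudogenes held 2 and 0 counts in CR libraries and 2 and 0 counts in WT libraries.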
